A study of Mus musculus with 18 samples.

Results

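Ptn and Mdk encode pleiotrophin and midkine, the members of a small family of secreted growth factors that bind heparin. They were taken as every probe that the platform annotation names Ptn or Mdk, which gave 2 probes (1 for each gene) of 21998 on the array. Both genes had a value on all 18 arrays. The genes were chosen by earlier results of these data: Ptn was selected on its log2 difference between rostral and caudal pools and that difference's adjusted p, and Mdk as its relative. That difference is described here without a test.

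Neocortex of MF1 mouse embryos, with no treatment or genotype named in the labels, at E13.5 (mid-gestation, counted in embryonic days) was divided along the rostrocaudal axis, and total RNA was prepared with Trizol from 9 pools, 3 rostral, 3 middle and 3 caudal. The tissue came from 4 embryos. Since the labels do not say which embryos entered which pool, the pools of a region may share animals, and the spread between pools may be technical. Each of the 18 arrays carried a pool of 1 region in Cy3 and a pool of another region in Cy5. A pool was hybridised 4 times, equally often with Cy3 and with Cy5, and any pair of regions met on 6 slides. The arrays give ratios and no levels, so the labelled tissue could not be checked for the presence of its markers, and Ptn and Mdk cannot be ranked by abundance.

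Pleiotrophin and midkine are known to bind the chondroitin sulfate chains of the receptor phosphatase Ptprz1 and the heparan sulfate chains of syndecans and glypicans. The receptor kinase ALK, the lipoprotein receptor LRP1, several integrins and nucleolin are also reported as their receptors or binding partners. In the embryonic cortex both factors are known as products of neural progenitors, and pleiotrophin is carried by radial glia, the elongated progenitors along which newborn neurons move.

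The promoter of Ptn is shown because Ptn is the member whose values were graded along the axis. RefSeq places the 250 bases before its start site on the minus strand at chr6:36810180-36810429 (GRCm38.p6). They are printed 5′ to 3′, with matches to 4 motifs in capitals.

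Ptn: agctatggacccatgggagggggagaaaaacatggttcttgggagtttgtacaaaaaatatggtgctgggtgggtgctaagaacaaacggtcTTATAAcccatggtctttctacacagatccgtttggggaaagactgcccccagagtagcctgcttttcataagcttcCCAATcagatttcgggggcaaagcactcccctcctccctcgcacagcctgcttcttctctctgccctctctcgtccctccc

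All motifs were searched on both strands, in Ptn and in the 32851 promoters of the table cut to the same 250 bases. The core promoter motif TATAA matched Ptn on both strands at overlapping positions, with first bases 158 and 157 before the start site, and was held by 22.8% of promoters. The other core promoter motif searched, CCAAT, matched 81 bases before the start site and was held by 33.8%. The nuclear receptor motif AGGTCA, known for the protein of Nr2f1, is not among these letters and was held by 14.02% of promoters. The ETS factor motif CGGAA, known for the protein of Etv1, is not among them either and was held by 25.2%. A match describes the sequence and is not a binding site.

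Each array gave between 18503 and 20965 ratios. Of all features, 18525 had enough values to be fitted. Ratios were read as Cy5 over Cy3 and centred on the median of each array, and a value for every pool was estimated by least squares from its arrays, relative to the mean of the 9 pools. The direction is likely and not stated in the labels: 7 of 8 probes of genes known to be graded across the cortex went the known way, among them Nr2f1 (rostral minus caudal -1.02 ± 0.07 and -1.02 ± 0.17 with its probes), and 1 probe of Etv5 did not (-0.06 ± 0.08). If Cy3 were the numerator, every sign below would turn. Because the tissue is a mixture, fewer cells of a type and less RNA per cell cannot be told apart.

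Ptn was graded from rostral to caudal. On the log2 scale the rostral pools 1 to 3 had values of 0.22, 0.29 and 0.14. The middle pools 1 to 3 had 0.04, 0.07 and 0.05. The caudal pools 1 to 3 had -0.30, -0.24 and -0.27. Every rostral pool thus lay above every middle pool and every middle pool above every caudal pool, with gaps of 0.065 between the nearest rostral and middle pools and 0.28 between the nearest middle and caudal pools. The same order of all 9 pools was found in 0.399% of features, and the reverse order in 0.405%. The choice of Ptn by its difference between the ends favoured separate rostral and caudal pools. These shares are therefore background and no test of its order.

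The region means of Ptn were 0.22 ± 0.08 (SD, n = 3 pools) rostrally, 0.05 ± 0.02 in the middle and -0.27 ± 0.03 caudally. Rostral exceeded caudal pools by 0.49 ± 0.05 (log2 difference ± SE), or 1.40-fold. This contrast chose the gene, so no test is given. It was the last of the 12 features (0.0648% of those tested) that passed an adjusted p of 0.05 in limma. Just inside that threshold, Laptm4b had -0.47 ± 0.05, and just outside, Ltbp1 had -1.08 ± 0.12 and Amer1 0.50 ± 0.06. A rise at least as large as that of Ptn was measured in 3.82% of features, and in 6.22% all rostral pools lay above all caudal pools. The SD of Ptn within regions was 0.048, lower than in most features (percentile 7.44), where the median feature had 0.151. The adjusted p that chose Ptn uses this spread, so a low SD was favoured by the choice.

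**Figure D1:**
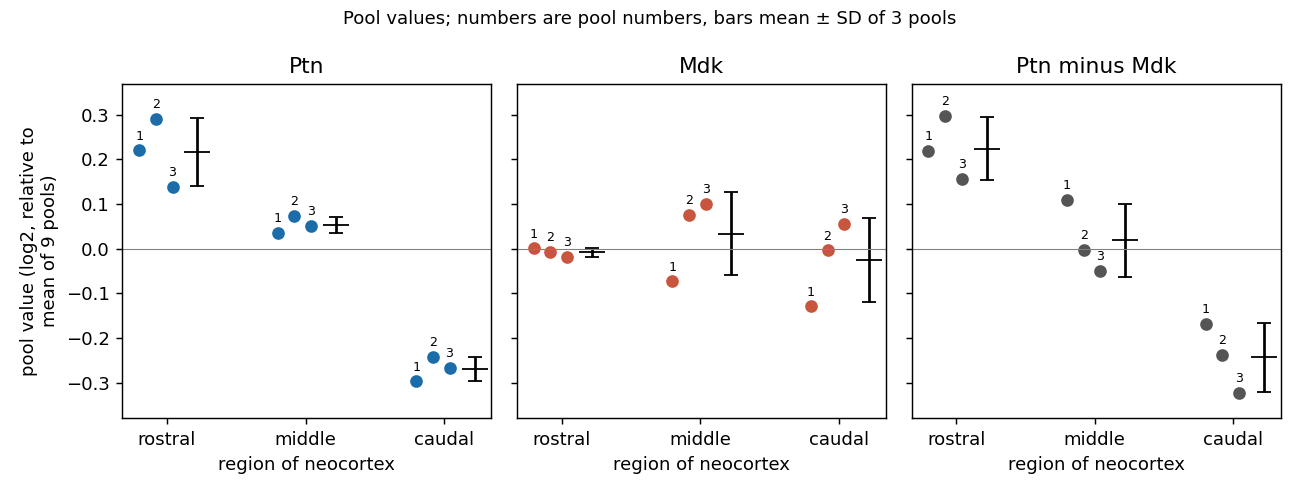
Values of Ptn, of Mdk and of their difference on each array in the 9 pools (log2, relative to the mean of the 9 pools); points are pools with their number, bars the mean ± SD of the 3 pools of a region. Ptn steps from 0.22 to 0.05 and -0.27 with no overlap of regions, and Mdk overlaps in all regions.

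The size of the Ptn difference depended little on which pool was left out (0.45 to 0.52), but its place inside the threshold was lost with each of the 9 pools removed in turn (limma adjusted p from 0.119 to 0.322). With 1 array removed it stayed inside without array 3, 9, 10 or 15 and in no other case (limma adjusted p from 0.0390 to 0.0900). Without centring of the arrays the difference was 0.41 ± 0.08.

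The arrays that joined the ends directly showed the Ptn difference on each slide. With the rostral pool in Cy5 the 3 ratios, turned to rostral over caudal, were 0.594 (rostral 2 over caudal 1), 0.453 (rostral 1 over caudal 3) and 0.438 (rostral 3 over caudal 2). With it in Cy3 they were 0.394 (rostral 1 over caudal 2), 0.492 (rostral 2 over caudal 3) and 0.451 (rostral 3 over caudal 1). All 6 lay above 0, and the dyes changed their mean little (0.50 and 0.45). The dye coefficient of Ptn over all arrays was 0.0013. The 12 arrays that join the ends only through the middle pools gave 0.52 for rostral over caudal, against 0.47 from the 6 direct arrays. These estimates share no array but rest on the same pools.

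Rostral against middle asks whether the Ptn gradient already shows in the rostral part of the axis. On the 6 arrays of this pair the rostral over middle ratio lay between 0.040 and 0.372, median 0.18, and above 0 on each. The lowest values, 0.040 and 0.053, were both on arrays of rostral pool 3. From the pool values the difference was 0.16 ± 0.05 (1.12-fold) and did not pass (limma adjusted p = 0.869, unadjusted p = 0.0176). Without centring of the arrays it was 0.26 ± 0.08. In this comparison 0 features passed in limma (0% of 18525), while 401 (2.16%) were higher and 572 (3.09%) lower in rostral pools at an unadjusted p under 0.05.

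Middle against caudal asks the same of the caudal part. The 6 ratios of middle over caudal lay between 0.242 and 0.450, median 0.34, again above 0 on each array. The difference from the pool values was 0.32 ± 0.05 (1.25-fold), rank 17 of 18525 features by p, and did not pass (limma adjusted p = 0.394, unadjusted p = 0.000456). Without centring it was smaller, 0.15 ± 0.08 (limma adjusted p = 0.406). Here too 0 features passed (0%), with 571 (3.08%) higher and 330 (1.78%) lower in middle pools at an unadjusted p under 0.05. Both differences share their pools with the contrast that chose the gene and add up to it. Their p and rank are thus affected by that choice and serve as description.

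The middle pools of Ptn lay 66.4% of the way from the caudal to the rostral mean with centred arrays and 35.9% of the way without centring. Whether the steps were unequal is asked by the middle against the mean of the ends. The choice of the gene did not use this difference. It did use the spread within regions, on which the SE, interval and p of this contrast rest. Ptn had 0.08 ± 0.05 (95% interval -0.03 to 0.19; limma adjusted p = 0.99995, unadjusted p = 0.128), so a larger caudal step was not shown. No feature passed this contrast (0%), with 445 (2.4%) higher and 307 (1.66%) lower at an unadjusted p under 0.05. Without centring the Ptn value turned to -0.06 ± 0.07.

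Mdk showed no such order. The rostral pools 1 to 3 had values of 0.0006, -0.0072 and -0.02. The middle pools 1 to 3 had -0.07, 0.08 and 0.10. The caudal pools 1 to 3 had -0.13, -0.0039 and 0.06. The regions overlapped throughout, and the rostral pools were the closest together (SD 0.0094, n = 3, against 0.094 in the middle and 0.095 caudally). Middle pools 2 and 3 were the highest, and middle pool 1 and caudal pool 1 the lowest.

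Rostral against caudal, Mdk differed by 0.02 ± 0.07 (1.01-fold, 95% interval -0.15 to 0.18). Rostral against middle it had -0.04 ± 0.07 (interval -0.21 to 0.12; limma adjusted p = 0.999), middle against caudal 0.06 ± 0.07 (interval -0.10 to 0.22; limma adjusted p = 0.995). For the middle against the ends it had 0.05 ± 0.06 (limma adjusted p = 0.99995). None of the last 3 passed. The intervals leave room for differences of up to about 0.2 in either direction, and the sign of each Mdk value changed under some setting, among them the lack of centring.

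Single arrays of Mdk varied around 0. The 6 ratios of rostral over caudal ran from -0.060 to 0.195, with 4 above 0. Rostral over middle ran from -0.324 to 0.005, with 2 above 0, and the lowest values were -0.324 (rostral 1 over middle 3) and -0.236 (rostral 3 over middle 2). Middle over caudal ran from -0.229 to 0.319, with 3 above 0. Direct and indirect arrays disagreed in sign for rostral over caudal (0.07 directly and -0.10 through the middle pools) and for rostral over middle (-0.10 directly and 0.07 through the caudal pools). For middle over caudal they gave 0.0028 directly and 0.17 through the rostral pools. For Ptn they gave the same direction in all 3 pairs. The Mdk probe had a dye coefficient of -0.07 and a residual SD between arrays of 0.122, against 0.084 for Ptn and 0.256 for the median feature. RefSeq lists a pseudogene, Mdk-ps1, and whether the Mdk probe also reads it was not tested.

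**Figure D2:**
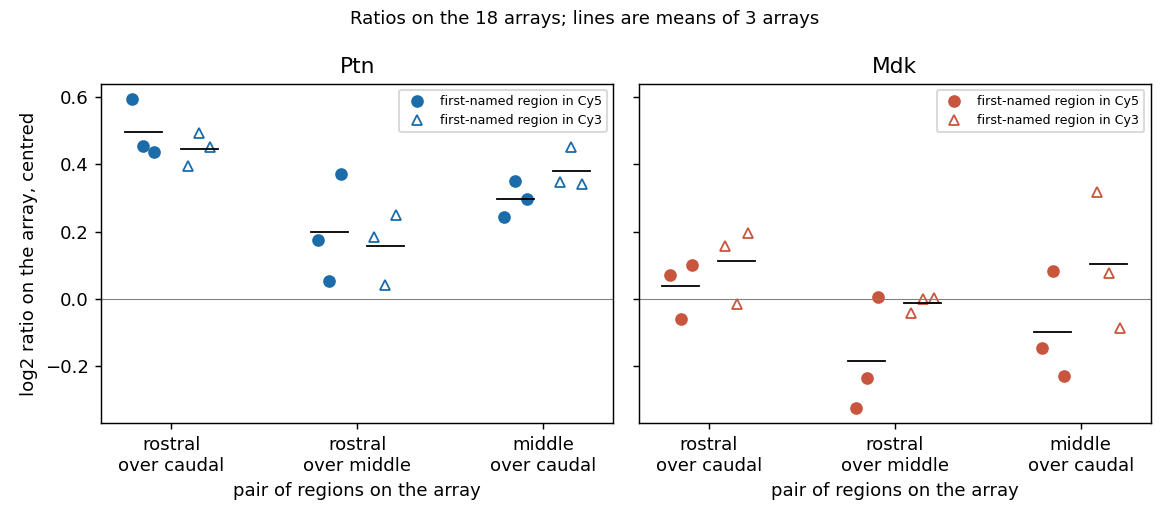
Centred log2 ratios of Ptn and Mdk on the 18 arrays, turned so that the more rostral region is the numerator; filled circles have that region in Cy5, open triangles in Cy3, and lines are means of 3 arrays. All 18 Ptn ratios lie above 0, from 0.040 to 0.594, whereas the Mdk ratios run from -0.324 to 0.319.

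The genes were also set against each other on the same slide, where the centring of the array cancels. The difference Ptn minus Mdk was 0.22 ± 0.07 (SD, n = 3 pools) in rostral pools, 0.02 ± 0.08 in middle pools and -0.24 ± 0.08 in caudal pools, each against the 9-pool mean. Its pool values ran from 0.16 to 0.30 rostrally, from -0.05 to 0.11 in the middle and from -0.32 to -0.17 caudally. Between the ends it changed by 0.47 ± 0.06, which is 1.38-fold. This is a description, since Ptn was chosen for its own difference, and it does not show that Mdk was constant.

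The Gapdh control spots, which carry the same gene many times on each array, had values of -0.07, -0.04 and -0.15 in rostral pools 1 to 3, 0.08, 0.09 and 0.07 in middle pools and -0.14, 0.03 and 0.14 in caudal pools. They lacked the order of Ptn, and with them as a covariate Ptn had 0.51 between the ends. Caudal pool 1 was low and middle pools 2 and 3 were high both in these spots and in Mdk, whereas middle pool 1 was high in the spots and low in Mdk. With the covariate the Mdk value for rostral against middle turned to 0.06 ± 0.08 and that for the middle against the ends to -0.02 ± 0.06.

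Cell type markers were compared between the ends, since the regions could differ in their mixture of cells. Of 13 radial glia genes 8 were above 0 and 5 below, with a median difference of 0.0040 (0.0016 over all features). By the probes used, 2 were higher and 3 lower at an unadjusted p under 0.05 in limma, where 4.17% and 3.74% of features were. Another probe of Pax6, a progenitor transcription factor, was higher at an unadjusted p under 0.05 (0.32 ± 0.07), unlike the one used (0.31 ± 0.20), and neither passed (limma). Vim, the intermediate filament of radial glia, passed (-0.51 ± 0.05, limma adjusted p = 0.0389), opposite in direction to Ptn. Slc1a3, a glutamate transporter of the same cells, had 0.32 ± 0.05 (0.32 ± 0.29 and 0.22 ± 0.06 with its other probes) and did not pass (limma adjusted p = 0.156). Lhx2, of the same list, had -0.31 ± 0.07, opposite in direction to Ptn, and did not pass (limma adjusted p = 0.204). Markers of meninges and mesenchyme were lower rostrally in 10 of 11 (median -0.15), those of red blood cells in 4 of 5 (-0.32), of endothelium in 7 of 9 (-0.07) and of microglia in 4 of 5 (-0.08), and 0 of these passed, where 0.0648% of all features did (limma; 5 meningeal and 2 red blood cell genes were lower at an unadjusted p under 0.05, where 3.74% of features were). The pool medians of the meningeal markers ran from -0.13 to 0.0044 rostrally, -0.04 to 0.04 in the middle and 0.01 to 0.12 caudally. Intermediate progenitor genes had a median of 0.12 over 7 genes (pool medians -0.06 to 0.15 rostrally and -0.12 to 0.02 caudally). Of them 2 were higher and 1 lower at an unadjusted p under 0.05 in limma, where 4.17% and 3.74% of features were. Neuronal genes had -0.07 over 14, with 2 higher and 2 lower by the same measure. Ventral telencephalic genes had 0.02 over 8, with 0 higher and 1 lower. Choroid plexus and hem genes had -0.01 over 7 and surface epithelial genes 0.03 over 3. In these lists 0 genes passed, where 0.0648% of all features did. The part of any cell type in the Ptn difference was not tested.

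Receptors and binding partners showed no shared direction. Of the 24 listed, all were measured, and 10 were above and 14 below 0 between the ends (median -0.02, against 0.0016 over all features). None passed, where 0.0648% of all features did (limma; 1 was higher and 3 lower at an unadjusted p under 0.05, where 4.17% and 3.74% of features were). Another probe of the integrin gene Itgav, with a value on each array like the probe used, was higher (0.21 ± 0.08, unadjusted p = 0.0337 in limma, against -0.09 ± 0.16), which makes 2 higher if any probe counts. Ptprz1, the phosphatase that both factors bind, had values of 0.0013, -0.0023 and 0.09 in rostral pools, -0.13, -0.09 and 0.0083 in middle pools and 0.13, -0.02 and 0.01 in caudal pools. Its regions overlapped, and its difference between the ends was -0.01 ± 0.06. The receptor kinase gene Alk (-0.04 ± 0.08), the syndecan gene Sdc3 (0.0042 ± 0.085), the lipoprotein receptor gene Lrp1 (0.07 ± 0.15), the nucleolin gene Ncl (-0.04 ± 0.06) and the neuropilin gene Nrp1 (0.07 ± 0.16) were also within about their standard error of 0. These and Ptprz1 are named for their role. The 3 with the smallest p were Itga6, a laminin-binding integrin subunit (-0.35 ± 0.07), the glypican gene Gpc2 (0.25 ± 0.06) and the reelin receptor gene Lrp8 (-0.18 ± 0.06), with limma adjusted p of 0.206, 0.283 and 0.470.

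Of these 3, Gpc2 ran the same way as Ptn. Its rostral pools had values of 0.11, 0.06 and 0.21, its middle pools 0.03, -0.05 and -0.00039, and its caudal pools -0.06, -0.20 and -0.11. The regions did not overlap, in a gene that did not pass, and 0.399% of all features had this order. Gpc2 was named for its small p between the ends, which favours separate end pools. Itga6 ran the other way, with -0.17, -0.22 and -0.09 in rostral pools and 0.17, 0.13 and 0.26 in caudal pools. Its middle pools, at 0.09, -0.13 and -0.04, overlapped the rostral ones.

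None of the other ligands of these receptors or of the signalling genes behind them passed between the ends. Of 10 such ligands 7 were measured, 4 above and 3 below 0 (median 0.05), and 0 reached an unadjusted p under 0.05 in limma. The adhesion genes Ncam1 (0.16 ± 0.14, with 0.47 ± 0.25 and 0.02 ± 0.05 from other probes), Nrcam (0.94 ± 0.88, on 13 arrays) and L1cam (0.07 ± 0.15) had the smallest p. Of 19 downstream genes 14 were measured, 5 above and 9 below 0 (median -0.02), with 0 passing and 0 at an unadjusted p under 0.05 in limma. Cdh2, the N-cadherin gene, had -0.10 ± 0.06, the MAP kinase kinase gene Map2k1 -0.07 ± 0.04 and the tyrosine kinase gene Src -0.13 ± 0.09.

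The sugar chains that hold both factors are made by long enzyme series. Of 36 genes for heparan sulfate proteoglycans and their synthesis and editing 30 were measured, and 11 were above and 19 below 0 between the ends (median -0.02, 0 passing; 0 higher and 2 lower at an unadjusted p under 0.05 in limma, where 4.17% and 3.74% of features were). Hs2st1, which sulfates the uronic acid of the chain, had -0.09, -0.13 and -0.21 in rostral pools, -0.06, -0.05 and 0.05 in middle pools and 0.17, 0.11 and 0.22 in caudal pools. Its regions did not overlap and its order was opposite to that of Ptn (-0.31 ± 0.06, limma adjusted p = 0.169). This reverse order was found in 0.405% of all features, and Hs2st1 too was named for its small p between the ends. The glypican gene Gpc3 had -0.21 ± 0.05 and the sulfotransferase gene Hs3st1 0.22 ± 0.10 (limma adjusted p = 0.284 and 0.661). Between rostral and middle pools 24 of the 30 were below 0 (median -0.06, against 0.0022 over all features). Again 0 passed in limma and 2 were lower at an unadjusted p under 0.05, where 3.09% of features were. The chondroitin sulfate genes described next went the other way in this comparison, with 10 of 13 above 0 (median 0.05) and 0 passing in limma.

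Chondroitin sulfate proteoglycans and their enzymes were measured for 13 of 22 genes, 8 above and 5 below 0 (median 0.0053). None passed in limma (0.0648% of all features did). By the probes used, Dcn, the decorin gene and also a meningeal marker, was lower (-0.39 ± 0.09, limma adjusted p = 0.233) and the 1 gene at an unadjusted p under 0.05, where 3.74% of features were lower and 4.17% higher. Ncan, the neurocan gene, depended on its probe. The probe that stood for it had 0.0053 ± 0.071, while others, also with a value on each array, had 0.19 ± 0.16 and 0.60 ± 0.11, the last at an unadjusted p of 0.000923 (limma adjusted p = 0.167). Bcan, the brevican gene, had -0.12 ± 0.06, and the biglycan gene Bgn -0.13 ± 0.09.

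Other factors that bind heparin, most of them secreted, went both ways. Of 42 listed 37 were measured, 15 above and 22 below 0 (median -0.05), and 0 passed in limma (0.0648% of all features did), with 3 higher and 3 lower at an unadjusted p under 0.05, where 4.17% and 3.74% of features were. Sfrp1, a secreted WNT antagonist, came nearest (0.94 ± 0.13, limma adjusted p = 0.0619). Another probe of Sfrp1 had 0.73 ± 0.09 and did not pass either (limma adjusted p = 0.0571). By the probe used, Sfrp1 stepped like Ptn, with 0.36, 0.58 and 0.36 in rostral pools, -0.07, 0.09 and 0.21 in middle pools and -0.68, -0.56 and -0.28 in caudal pools. Fgf1, an FGF without a signal peptide, had -0.32 ± 0.07 with a probe and 0.02 ± 0.07 with another. The chemokine gene Cxcl12, a meningeal marker too, had -0.27 ± 0.07 (limma adjusted p = 0.310).

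**Figure D3:**
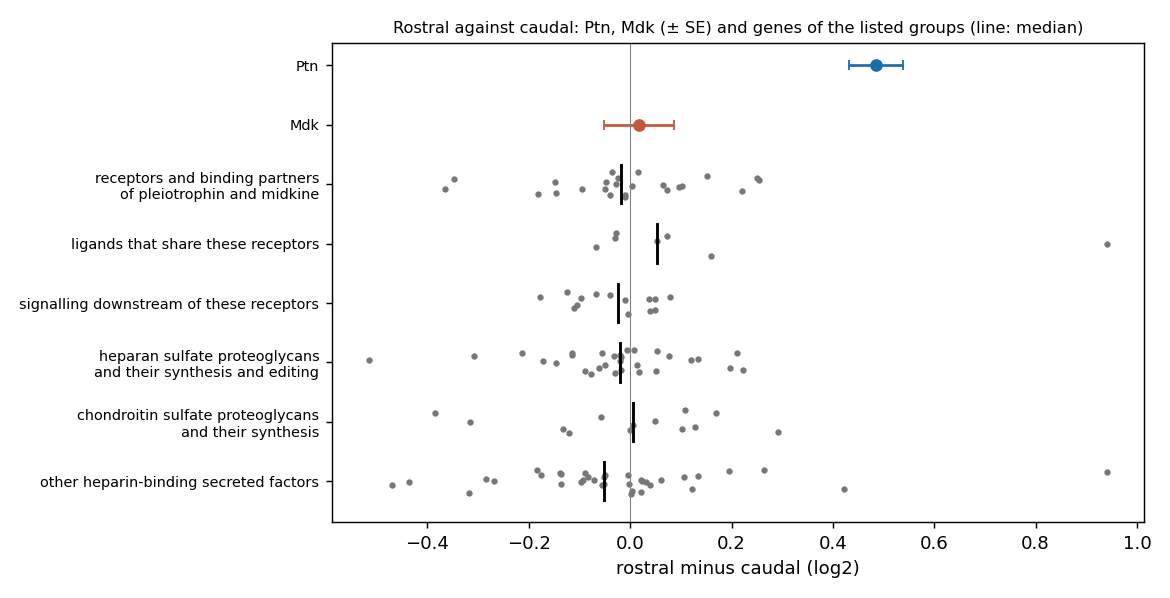
Log2 difference of rostral minus caudal for Ptn and Mdk (± SE) and for the measured genes of the 6 groups (1 point per gene, black line the median). Ptn stands at 0.49 and Mdk at 0.02, while the group medians lie between -0.05 and 0.05.

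The genes whose pools ran most like Ptn were sought among 5191 features with values on all arrays and a spread over the pools at or above the median. By Pearson's r over the 9 pools, which share arrays, the nearest were Smim11 (r = 0.984), a small membrane protein gene, Atp5pb (0.984), a subunit of the mitochondrial ATP synthase, Hmgb1-rs18 (0.979), a sequence related to the chromatin gene Hmgb1, Amer1 (0.978), a regulator of WNT signalling, and Cdkn2d (0.974), a cell cycle inhibitor. Their differences between the ends were 0.23 ± 0.05, 0.27 ± 0.05, 0.34 ± 0.05, 0.50 ± 0.06 and 0.44 ± 0.05. In all, 51 of these features (0.982%) had r over 0.9 with Ptn.

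For Mdk, 3 of 5192 features had r over 0.9 (0.0578%). Nearest were the centromere protein gene Cenpm (0.926), the thymidylate synthase pseudogene Tyms-ps (0.924), the steroid hydroxylase gene Cyp21a1 (0.908), Selenoh (0.897), a selenoprotein gene, and Rai1 (0.884). Mdk spread over the pools by an SD of 0.072, lower than that of most features (percentile 15.3), so these likenesses rest on small values. The SD of Ptn was 0.22 (percentile 60.5).

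**Figure D4:**
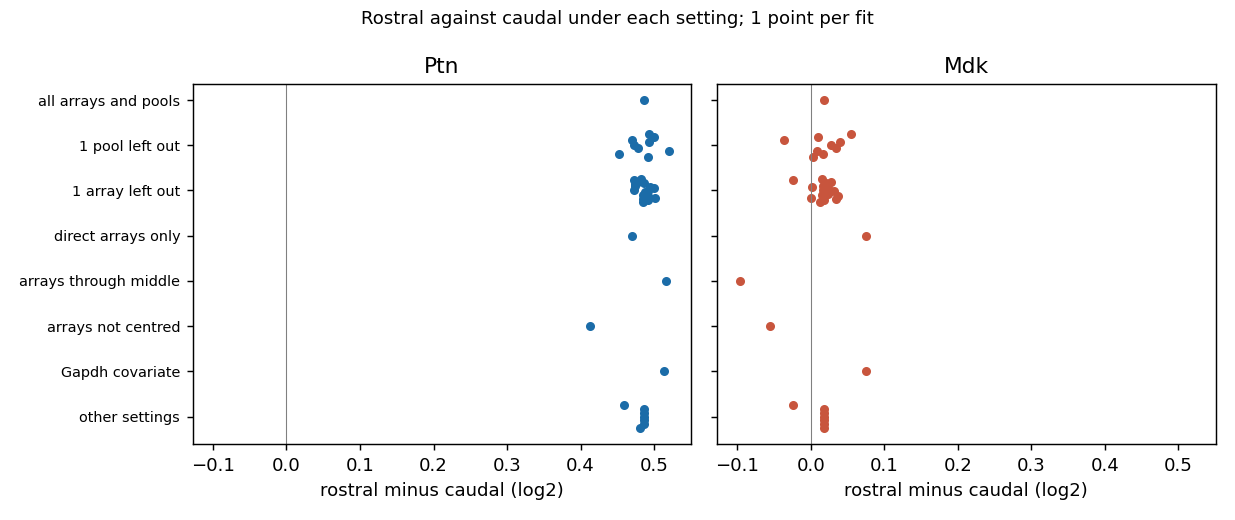
Log2 difference of rostral minus caudal for Ptn and Mdk under each setting (1 point per fit). Ptn stays between 0.41 and 0.52, and Mdk lies between -0.10 and 0.08, on both sides of 0.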

How the data were processed

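The authors deposited 1 log2 ratio per probe and array, with dyes per the labels; the largest value, 16.61, is log2 of 100000, a capped ratio. The sources used here do not give scanner, normalization or numerator. Capped ratios (1477) were set to missing, arrays were centred on their medians (-0.09 to 0.61), and the 232 Gapdh control spots were left out. A feature needed values on 12 arrays and on 2 of each pool. Pool values came from least squares with a dye term. Regions were compared over the 9 pools with limma 3.58.1 under R 4.3.3, using lmFit and eBayes (6 residual degrees of freedom, 1.26 prior), with two-sided p-values, Benjamini-Hochberg adjustment across the 18525 features and a threshold of 0.05. The code was tested on simulated data.

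Members and lists were chosen with earlier results of these data known. Named were both members, the 5 likest genes of each, and per pathway list the genes that passed and the 3 with the smallest p between the ends. The probe with values on most arrays, and among ties the first in the file, stood for a listed gene, so genes with several complete probes are counted by their first. Platform symbols of 15952 of 16632 probes with 1 symbol were found in the reference by gene ID. The number of pools, 3 per region from 4 embryos, limits precision.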

Additional observations from a re-analysis of the deposited data

How the results depend on the processing

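Ptn kept its direction between the ends, between rostral and middle and between middle and caudal under every setting run, and its value between the ends moved by more than its spread only without centring (0.41), where rostral against middle was 0.26 and middle against caudal 0.15. It was outside the threshold between the ends without centring (limma adjusted p = 0.308), with arrays scaled to one median absolute deviation (0.0506), with the Gapdh covariate (0.105), with pool number as a replicate block (0.301) and without the 4 arrays with most capped ratios (0.125), a setting chosen after seeing the data. The deviations of same-numbered pools from their region means correlated at r from -0.43 to -0.06. No array carried same-numbered pools together, and under this layout array noise alone makes such an r negative. Whether the number pairs the pools therefore stays unknown. The array-level fit, which treats the arrays as independent although pools recur on them, called Ptn also in both comparisons with middle pools (0.16 over middle and 0.32 for middle over caudal). Without centring Ptn for the middle against the ends was -0.058, and Mdk turned to 0.059 (rostral against middle), -0.11 (middle against caudal) and -0.087 (the middle against both ends). With the Gapdh covariate Mdk turned to 0.058 (rostral against middle) and -0.020 (middle against the ends). Leaving out 1 pool or array moved Mdk for rostral against middle between -0.088 and 0.0022, the latter without middle pool 3. The indirect arrays gave Mdk -0.10 between the ends, 0.072 for rostral over middle and 0.17 for middle over caudal.

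The count of features that passed between the ends was 12, and 0 to 17 with 1 pool or array left out: 4 without middle pool 1, 0 without any other pool, 2 without array 13, 6 without array 14 and 7 without array 5, 11 or 16. Leaving the arrays uncentred, the block and the covariate each gave 0. The count was 3 without the 4 arrays with most capped ratios, 46 among features with a value on all arrays and 1325 in the array-level fit, which also called 707 features for rostral over middle, 501 for middle over caudal and 293 for the middle over both ends, where every other setting gave 0.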
